A study of Mus musculus with 6 samples.

Results

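Ion channel genes of the mouse heart were followed across 2 genotypes, both under doxorubicin. The members were the genes of the deposited comparison table whose symbol starts with Kcn (potassium channels and their partners), Scn and a digit (voltage-gated sodium channels), Cacn (voltage-gated calcium channels) or Hcn and a digit (pacemaker channels). The choice used the name alone. The table lists 44 such genes among 14956, of which 38 had a mean of at least 1 FPKM (a fragment count divided by transcript length and by the library's mapped fragments) over the 6 hearts and entered the test. The 38 were 22 potassium, 5 sodium, 9 calcium and 2 pacemaker channel genes. The 44 are not every channel gene of the mouse: the GENCODE M21 annotation names 143 genes by the same rule, and the other 99, among them Kcna4, Kcnma1 and Cacna1d, are not analysed here.

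Poly(A) RNA was sequenced from heart tissue of 3 wild-type mice (Otub1 +/+, WT) and 3 mice with a heterozygous knock-out of Otub1 (Otub1 +/-, Het). All 6 mice had been given doxorubicin (DOX) in 6 injections within 2 weeks, so the controls carry the drug too and no untreated heart is part of the comparison. Otub1 encodes a deubiquitinase, and doxorubicin is an anthracycline whose use is limited by harm to the heart. Each library is taken as 1 mouse. The sources used here give no age, sex, strain or kind of knock-out allele.

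The cardiac action potential is the summed work of these genes. Sodium channels open first and depolarise the myocyte, L-type calcium channels hold the plateau and trigger contraction, and several potassium currents bring the membrane back to rest. Mouse ventricle repolarises fast, mainly through the transient outward current and the ultrarapid and slowly inactivating delayed rectifiers, while inward rectifiers set the resting potential. Pore-forming alpha subunits conduct the ions, and auxiliary subunits change their gating or their delivery to the membrane.

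Het 1 stood apart from the other 5 libraries and its values are given throughout beside those of the other hearts. Across the 11096 tested genes its log2(FPKM + 1) values correlated with those of the other libraries at 0.844 to 0.887, and the other 5 each reached 0.9699 to 0.987 with their nearest library. Mitochondrial transcripts held 64.97% of all summed FPKM for Het 1 and 51.5% to 56.1% elsewhere. Het 3 held lung epithelial transcripts, with a summed level over 5 markers of 788 FPKM against 0 to 0.110 FPKM in the other 5 hearts. Hepatocyte markers separated the genotypes, 6 of 6 being lower in all Het hearts, with sums of 109 to 155 FPKM (WT) and 1.83, 38.7 and 0.424 FPKM (Het 1, 2 and 3). Erythroid markers, 5 genes, summed to 819 to 1140 FPKM (WT) and 4466, 1971 and 559 FPKM (Het 1, 2 and 3). The part of these cells in the channel values was not tested. Markers of ventricular myocytes were present in all 6 hearts, their summed level over 6 genes being 4070, 4154 and 4082 FPKM in WT and 2387, 3613 and 2894 FPKM in Het 1, 2 and 3. Most of this sum was Myl2 and Myl3, and its genes differed in Het 1. Lbh and Myl3 were lowest there, Myl3 at 578.6 FPKM against 1473 to 1769 FPKM elsewhere. Irx4 was highest in Het 1, and Hey2 lay inside the WT range there. Myh7, Myl2 and Myl3 were lower in every Het heart than in any WT heart. Otub1 itself was at 14.2 to 15.4 FPKM in WT and 4.83 to 6.65 FPKM in Het. Depth in reads is unknown, so the error given is the spread between mice.

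No channel gene passed limma's test over all 11096 genes (0 of 38 at an adjusted p under 0.05, against 0.018% of all genes). The smallest adjusted p among them was 0.753. Without adjustment 2 of 38 (5.26%) had a p under 0.05 in limma's test, Kcne1 and Kcnd3, close to the 3.88% of all genes. The groups did not overlap for 5 genes. Kcnd3, Cacna1g and Cacna1c had all 3 Het hearts above all 3 WT hearts, 3 of 38 (7.89%) where 1.83% of all genes did. Kcne1 and Kcnj8 were lower in every Het heart, 2 of 38 (5.26%) where 15.6% of all genes were. With 3 mice against 3, the exact two-sided permutation test cannot go below p = 0.1, the value all 5 genes reached. The median log2 difference, Het minus WT on the log2(FPKM + 1) scale, was −0.09 over the channel genes and −0.18 over all tested genes, and 24 of the 38 lay above that median gene.

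**Figure D1:**
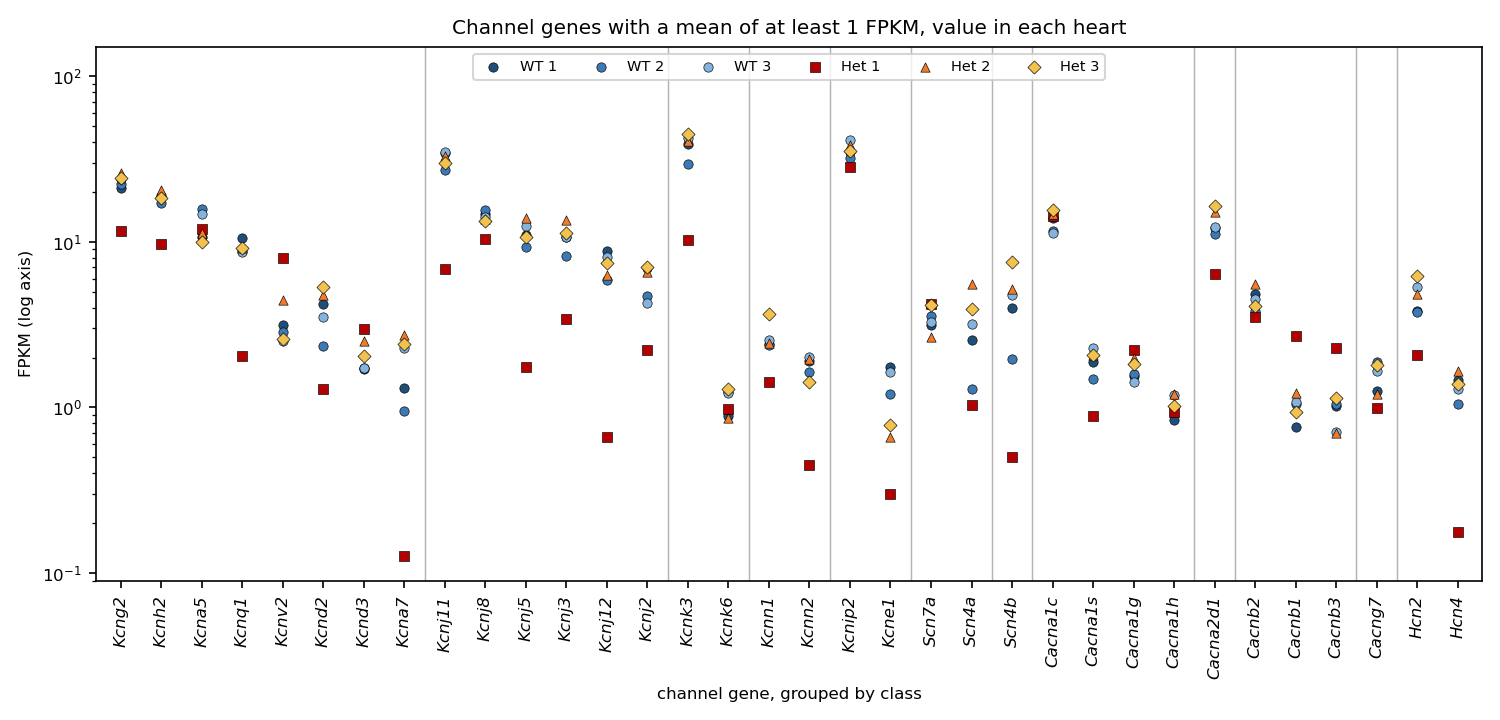
Level of 34 of the 38 tested channel genes in each heart, in FPKM on a log axis, grouped by class and ordered by mean within a class; circles are WT hearts and squares, triangles and diamonds are Het 1, 2 and 3. The squares of Het 1 lie below the other 5 hearts for 24 of these genes and above them for 6.

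Much of the spread within Het came from 1 heart. Het 1 had the lowest value of the 6 hearts for 27 of the 38 channel genes (71.1%), as it did for 65.00% of all tested genes, and the highest for 7 (18.4% against 18.1%). It held less than 50% of the WT mean for 16 channel genes (42.1%, against 33.8% of all genes) and less than 25% for 9 (against 7.34% of all genes). The 9 were Kcna7, Kcnj12, Hcn4, Scn4b, Kcnj5, Kcne1, Kcnj11, Kcnq1 and Kcnn2, at 8.37% to 24.2% of the WT mean. Kcnv2, Cacnb1 and Cacnb3 went the other way in Het 1, at 248% to 281% of the WT mean. In Het 2 and Het 3 every tested channel gene lay between 43.3% and 238% of the WT mean. The summed level of the 44 genes was 345, 304 and 363 FPKM in WT 1, 2 and 3 and 193, 375 and 362 FPKM in Het 1, 2 and 3. Over genes detected in all libraries, the median ratio to each gene's geometric mean was 0.735 for Het 1 and 1.05 to 1.10 for the others. The part of this library-wide difference in the channel values was not tested. In bulk tissue, fewer myocytes and less channel RNA per myocyte cannot be told apart either.

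Without Het 1 most channel genes had a higher mean in Het, with no call after adjustment. Their median log2 difference was 0.12 against −0.04 over all genes, and 31 of 38 lay above the median gene. Still 0 passed the adjusted threshold (against 0.0721% of all genes), and the smallest adjusted p was 0.247. Limma's unadjusted p was under 0.05 for 7 of 38 (18.4%, against 12.4% of all genes). Of these, Cacna2d1, Kcnd3, Kcnd2, Scn4a, Cacna1c and Kcna7 were higher in Het and Kcne1 was lower. Both remaining Het hearts lay above all WT hearts for 11 channel genes (28.9%, against 10.9% of all genes) and below them for 2 (5.26%, against 21.8%).

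In the authors' deposited table, whose test the sources used here do not tie to a tool, 1 of the 44 genes (2.27%) has an adjusted p under 0.05, against 1.02% of all listed genes. That gene is Kcne1, listed there at −1.40 (log2 fold change) with 0.0301 as its adjusted p. The authors' deposited table gives 6 of the 44 an unadjusted p under 0.05 (13.6%, against 7.08% of all listed genes), among them Cacna1c, Cacna1g, Kcnd3 and Kcnv2 as higher in Het and Kcne1 as lower.

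By GENCODE M21 (GRCm38) the 5 genes with separate groups lie at chr16:92345982-92359468 (Kcne1), chr6:142564837-142571614 (Kcnj8), chr3:105452330-105674002 (Kcnd3), chr11:94408391-94474198 (Cacna1g) and chr6:118587240-119196418 (Cacna1c), and all 5 are coding genes. Several other members share exon sequence with genes on the opposite strand, among them Kcng2, Kcnj3, Kcnk3, Kcnn1, Kcnn2, Cacna1h, Cacna1s, Cacnb1 and Cacnb2. The libraries were stranded, but no source used here says whether counting used the strand, so reads of such pairs may be mixed.

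**Figure D2:**
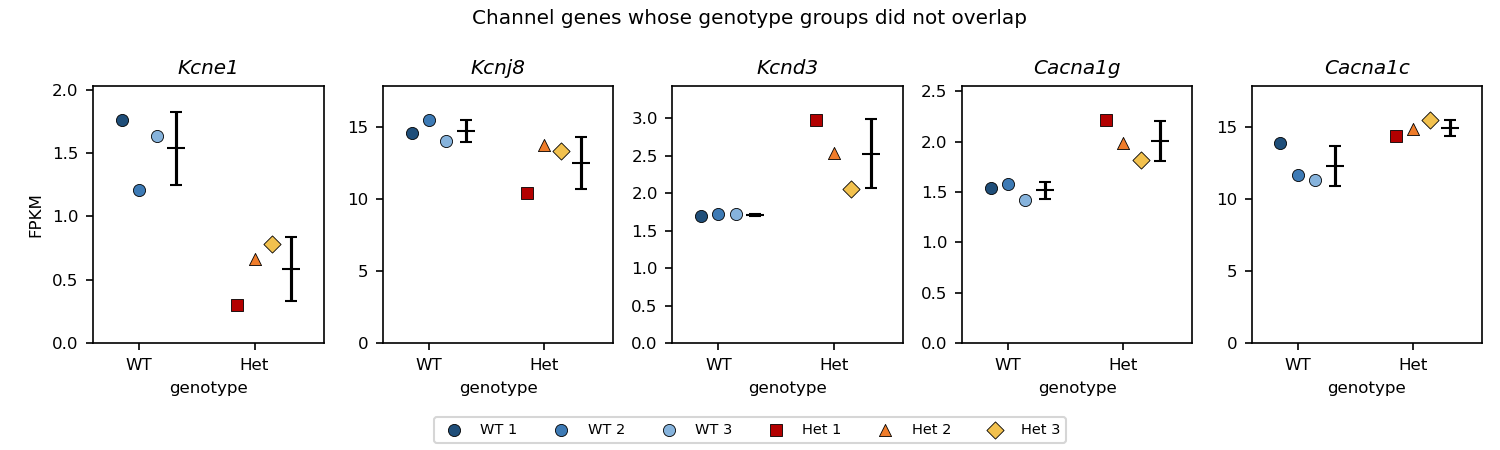
FPKM of the 5 channel genes whose genotype groups did not overlap, in each heart, with the mean and SD of 3 hearts beside the points. Kcne1 and Kcnj8 lie lower in Het, and Kcnd3, Cacna1g and Cacna1c lie higher.

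Kcne1 had the smallest p of the channel genes. It encodes minK, a small single-pass membrane protein that joins the pore KCNQ1 and slows its opening, forming the slow delayed rectifier. For Kcne1 the WT hearts gave 1.77, 1.21 and 1.64 FPKM, while Het 1, Het 2 and Het 3 gave 0.301, 0.665 and 0.783 FPKM. All 3 Het hearts lay under all 3 WT hearts, with Het 1 the lowest. The means were 1.54 ± 0.291 FPKM (WT) and 0.583 ± 0.251 FPKM (Het) (± SD of 3 hearts), which puts Het at 37.9% of WT. The log2 difference was −0.69 (SE 0.17, limma, adjusted p 0.753), and −0.55 without Het 1, where its adjusted p was 0.247. The gene averaged 1.06 FPKM over all hearts and passed the filter of 1 FPKM only through WT. At this level the log2(FPKM + 1) scale shrinks differences. With a pseudocount of 0.1 the log2 difference was −1.32.

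Its pore partner Kcnq1 showed no such separation. Kcnq1 measured 10.5, 8.903 and 8.63 FPKM across the WT hearts, compared with 2.03, 9.12 and 9.12 FPKM for Het 1, 2 and 3. Only Het 1 was low, and the log2 difference of −0.61 (SE 0.48) became −0.03 without it. Kcnq1 shares exon sequence with the antisense gene Kcnq1ot1. Within each heart the ratio of Kcne1 to Kcnq1 in FPKM was 0.169, 0.136 and 0.190 for WT 1 to 3, and 0.148, 0.0729 and 0.0859 for Het 1 to 3. Het 1 lies inside the WT range of this ratio, with both genes low there, while Het 2 and Het 3 lie below it. Kcne4, which inhibits KCNQ1, and Kcnip3, a calcium-binding relative of Kcnip2, stayed under 1 FPKM on average and were not tested.

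Kcnd3, a gene of the transient outward current, had the next smallest p. The channels of this current are tetramers of Kv4.2 (Kcnd2) and Kv4.3 (Kcnd3) with the calcium sensor KChIP2 (Kcnip2), which raises their surface expression. Kcnd3 levels in the WT hearts were 1.696, 1.72 and 1.72 FPKM, and Het 1, 2 and 3 had 2.98, 2.53 and 2.06 FPKM. The WT hearts were nearly identical and every Het heart lay above them, Het 1 furthest. Means were 1.71 ± 0.0132 FPKM (WT) and 2.52 ± 0.462 FPKM (Het) (± SD, 3 hearts each). The log2 difference was 0.37 (SE 0.14, limma, adjusted p 0.753) and kept its sign in all 13 alternatives that could be run for it. With separate groups only the 3 other scalings could have turned its sign, and there it was 0.39 to 0.53. Kcnd3 overlaps the antisense gene Kcnd3os in exon sequence. Kcnd3os, a non-coding transcript under the filter, spanned 0.176 to 0.330 FPKM across WT, was listed at 0 for Het 1 and measured 0.610 and 0.307 FPKM for Het 2 and 3.

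Kcnd2, in contrast, split the Het hearts. Kcnd2 gave 4.19, 2.37 and 3.496 FPKM for WT 1 to 3, whereas Het hearts 1, 2 and 3 read 1.29, 4.79 and 5.37 FPKM. Het 1 was the lowest heart and Het 2 and Het 3 were the highest, so the log2 difference was 0.03 (SE 0.41) with all hearts and 0.50 without Het 1 (limma, adjusted p 0.359). The FPKM ratio of Kcnd2 to Kcnd3 was 2.47, 1.38 and 2.03 for WT 1 to 3, and 0.431, 1.89 and 2.61 for Het 1 to 3. Kcnd3 outweighed Kcnd2 in Het 1 and in no other heart. Kcnip2, with the highest mean of all 44 genes, varied little. For Kcnip2 the WT hearts gave 34.7, 32.1 and 41.1 FPKM, while Het 1, Het 2 and Het 3 gave 28.1, 38.5 and 35.1 FPKM. Its groups overlapped, with means of 35.9 ± 4.64 FPKM (WT) and 33.9 ± 5.301 FPKM (Het) (± SD, 3 hearts each).

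The ultrarapid delayed rectifier is carried in mouse heart by Kv1.5 (Kcna5). Kcna5 measured 10.7, 15.8 and 14.8 FPKM across the WT hearts, compared with 12.00, 11.3 and 9.97 FPKM for Het 1, 2 and 3. WT 2 and WT 3 were the highest hearts and WT 1 lay among the Het values, so the groups overlapped (log2 difference −0.28, SE 0.21, adjusted p 0.753). Kcna5 is strong in atria. The atrial transcript Nppa, which is also a stress gene of ventricle, measured 109.6, 380 and 224 FPKM across WT 1 to 3, and 229.7, 56 and 97.6 FPKM across Het 1 to 3. Another atrial marker, Stard10, was lowest in Het 1 (2.68 FPKM) and highest in Het 2 (5.82 FPKM), where Nppa was lowest. Dkk3, an atrial marker below the filter, was at 0.317 to 1.14 FPKM and highest in WT 2, as was Nppa. The part of atrial tissue in the Kcna5 values was not tested.

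Kcng2 and Kcnv2 encode silent subunits, which form no channel alone and alter the Kv channels they join. Kcng2 levels in the WT hearts were 21.2, 22.3 and 23.9 FPKM, and Het 1, 2 and 3 had 11.6, 26.2 and 24.1 FPKM. Kcng2 had the highest mean of the voltage-gated potassium subunits and was low in Het 1 only, where Kcna5 exceeded it. Kcnv2 gave 3.14, 2.84 and 2.51 FPKM for WT 1 to 3, whereas Het hearts 1, 2 and 3 read 7.97, 4.47 and 2.604 FPKM. Kcnv2 went the opposite way, highest in Het 1, above the WT range in Het 2 and inside it in Het 3 (log2 difference 0.55, SE 0.32, adjusted p 0.753).

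Kcnh2 encodes ERG, the pore of the rapid delayed rectifier and the site at which many drugs prolong the QT interval. For Kcnh2 the WT hearts gave 18.8, 17.2 and 18.7 FPKM, while Het 1, Het 2 and Het 3 gave 9.73, 20.5 and 18.3 FPKM. The 5 hearts other than Het 1 lay close together. Kcna7, a Kv1 family subunit of muscle, stood lowest in Het 1 relative to WT among the tested channel genes. Kcna7 measured 1.31, 0.956 and 2.28 FPKM across the WT hearts, compared with 0.127, 2.75 and 2.42 FPKM for Het 1, 2 and 3. Het 1 held 8.37% of the WT mean while Het 2 and Het 3 exceeded every WT heart.

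Inward rectifiers pass current more easily into the cell than out, which anchors the resting potential. The 6 genes had a median of −1.69 in Het 1 on the log2(FPKM + 1) scale relative to the WT mean, against −0.45 over all genes. In Het 2 and Het 3 the medians of this class were 0.17 and −0.02. Kir2.1 (Kcnj2) and Kir2.2 (Kcnj12) form the classical inward rectifier of ventricle. Kcnj2 levels in the WT hearts were 6.903, 4.73 and 4.28 FPKM, and Het 1, 2 and 3 had 2.23, 6.58 and 7.08 FPKM. Kcnj12 gave 8.77, 5.91 and 8.07 FPKM for WT 1 to 3, whereas Het hearts 1, 2 and 3 read 0.666, 6.32 and 7.45 FPKM. Het 1 was the lowest heart for both, but Kcnj12 stood at 8.78% of the WT mean there and Kcnj2 at 42.1%. The FPKM ratio of Kcnj2 to Kcnj12 was 0.787, 0.801 and 0.530 for WT 1 to 3, and 3.35, 1.04 and 0.950 for Het 1 to 3, above the WT range in each Het heart. This ratio was looked at after the values were known and carries no test.

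Kir3.1 (Kcnj3) and Kir3.4 (Kcnj5) pair into the acetylcholine-gated current that slows the heart on vagal stimulation. For Kcnj3 the WT hearts gave 10.7, 8.27 and 10.7 FPKM, while Het 1, Het 2 and Het 3 gave 3.41, 13.5 and 11.3 FPKM. Kcnj5 measured 11.1, 9.35 and 12.5 FPKM across the WT hearts, compared with 1.76, 13.98 and 10.7 FPKM for Het 1, 2 and 3. Het 2 was the highest heart for both genes and Het 1 the lowest. Without Het 1 the log2 differences were 0.30 for Kcnj3 and 0.15 for Kcnj5, with adjusted p of 0.4398 and 0.699 in limma's test.

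ATP-sensitive channels open when ATP falls. Kir6.2 (Kcnj11) is the pore of myocytes and Kir6.1 (Kcnj8) that of vascular muscle and pericytes, each with a sulfonylurea receptor. Kcnj11 levels in the WT hearts were 34.3, 27.3 and 34.7 FPKM, and Het 1, 2 and 3 had 6.81, 32.9 and 29.8 FPKM. Kcnj11 was low in Het 1 alone, as was Abcc9, the receptor subunit SUR2, with 10.3 FPKM there and 31.4 to 45.1 FPKM elsewhere. Kcnj8 gave 14.6, 15.5 and 14.03 FPKM for WT 1 to 3, whereas Het hearts 1, 2 and 3 read 10.4, 13.8 and 13.4 FPKM. The Kcnj8 groups were separate, though narrowly, since Het 2 lay just under WT 3. Its log2 difference was −0.23 (SE 0.19, adjusted p 0.753), or −0.05 relative to the median gene. The separation was absent after median-ratio scaling, quantile normalization or scaling without mitochondrial genes. Markers of smooth muscle and pericytes, summed over 8 genes, were at 225 to 238 FPKM in WT and 204 to 237 FPKM in Het. In Het 1 its genes differed in direction. The pericyte marker Rgs5 was at 78.9 FPKM there and 104.5 to 119.5 FPKM elsewhere, and the smooth muscle gene Tagln at 32.2 FPKM there and 3.07 to 6.77 FPKM elsewhere. Their part in the Kcnj8 values was not tested.

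Promoters of 4 of the 9 genes under 25% of the WT mean in Het 1 and of Kcnd3, which was highest there, are shown because their values lay together or apart in that heart. Each runs from 250 bases before to 50 bases after a RefSeq start (GRCm38.p6), on the strand of the gene and from 5′ to 3′, and capitals mark the GC box GGGCGG on either strand. They lie at chr11:61065554-61065853 (Kcnj12, plus strand), chr9:32344295-32344594 (Kcnj5, minus strand), chr7:45405710-45406009 (Kcna7, plus strand), chr9:58822699-58822998 (Hcn4, plus strand) and chr3:105451640-105451939 (Kcnd3, plus strand). Against the gene start in GENCODE M21, the RefSeq start lies 43240 bases inside the gene for Kcnj12, 307 for Kcna7 and 6 for Kcnj5, and upstream of it for Hcn4 and Kcnd3, so the Kcnj12 window belongs to an internal start.
Kcnj12: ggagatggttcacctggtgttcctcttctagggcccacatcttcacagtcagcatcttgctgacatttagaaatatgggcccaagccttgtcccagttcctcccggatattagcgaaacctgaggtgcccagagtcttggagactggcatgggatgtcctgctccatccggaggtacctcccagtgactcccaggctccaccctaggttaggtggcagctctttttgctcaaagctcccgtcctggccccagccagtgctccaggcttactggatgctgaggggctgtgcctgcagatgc
Kcnj5: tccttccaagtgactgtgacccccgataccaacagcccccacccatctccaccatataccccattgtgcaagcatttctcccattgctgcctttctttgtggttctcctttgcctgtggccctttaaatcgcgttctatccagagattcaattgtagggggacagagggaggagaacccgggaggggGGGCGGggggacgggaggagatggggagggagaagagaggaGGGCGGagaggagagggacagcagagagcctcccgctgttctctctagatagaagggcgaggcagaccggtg
Kcna7: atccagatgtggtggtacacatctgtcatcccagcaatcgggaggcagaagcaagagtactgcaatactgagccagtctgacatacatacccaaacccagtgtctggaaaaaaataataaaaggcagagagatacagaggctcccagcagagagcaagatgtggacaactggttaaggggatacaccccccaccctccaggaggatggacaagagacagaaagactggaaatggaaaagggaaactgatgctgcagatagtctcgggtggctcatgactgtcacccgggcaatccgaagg
Hcn4: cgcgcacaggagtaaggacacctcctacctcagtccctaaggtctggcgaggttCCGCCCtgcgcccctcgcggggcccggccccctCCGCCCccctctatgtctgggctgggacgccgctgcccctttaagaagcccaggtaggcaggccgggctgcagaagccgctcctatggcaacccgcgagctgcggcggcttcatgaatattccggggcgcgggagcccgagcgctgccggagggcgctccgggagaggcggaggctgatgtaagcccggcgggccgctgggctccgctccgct
Kcnd3: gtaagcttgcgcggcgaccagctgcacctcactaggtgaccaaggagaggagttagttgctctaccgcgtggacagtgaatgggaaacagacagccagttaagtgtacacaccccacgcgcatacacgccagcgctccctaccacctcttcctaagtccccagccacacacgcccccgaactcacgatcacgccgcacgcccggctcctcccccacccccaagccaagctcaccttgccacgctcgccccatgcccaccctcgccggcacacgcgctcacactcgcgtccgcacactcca

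GC content of these windows was 57% for Kcnj12, 58.3% for Kcnj5, 50.3% for Kcna7, 71.7% for Hcn4 and 64% for Kcnd3. The number of CpG dinucleotides was 4, 10, 4, 31 and 25 in the same order. Kcnj5 and Hcn4 hold 2 GC boxes each and the others hold none. Over the 37 promoter entries that match 29 of the 44 genes, 20 (54.1%) hold GGGCGG, against 35.7% of all 32851 promoters. The TATA box letters TATAAA were in 0 of 37, against 13.6% of all promoters. Letters of a T-box site, GGTGTG, were in 4 (10.8%, against 19.0%), and those of an NKX site, CACTTG, in 3 (8.11%, against 13.6%), both strands searched. The median GC content was 62.7% for the 37 and 52.7% for all promoters. These are matches of letters, not measured sites.

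Background potassium conductance comes from two-pore-domain channels. TASK-1 (Kcnk3), an acid-sensitive channel, was among the most abundant channel transcripts. For Kcnk3 the WT hearts gave 39.2, 29.5 and 42.6 FPKM, while Het 1, Het 2 and Het 3 gave 10.2, 40.8 and 44.5 FPKM. Het 3 and WT 3 were the highest hearts and Het 1 held 27.6% of the WT mean. Kcnk6 was low throughout, at 0.866 to 1.29 FPKM, with overlapping groups. Calcium-activated channels of small conductance shape atrial repolarisation. Kcnn1 measured 2.401, 2.38 and 2.57 FPKM across the WT hearts, compared with 1.42, 2.46 and 3.65 FPKM for Het 1, 2 and 3. Kcnn2 levels in the WT hearts were 1.89, 1.65 and 2.01 FPKM, and Het 1, 2 and 3 had 0.448, 1.95 and 1.43 FPKM. Kcnn1 was highest in Het 3, Kcnn2 in WT 3, and both were lowest in Het 1. Kcnt2, a sodium-activated channel, stayed below the filter and was the reverse, at 1.22 FPKM in Het 1 and 0.375 to 0.705 FPKM elsewhere.

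**Figure D3:**
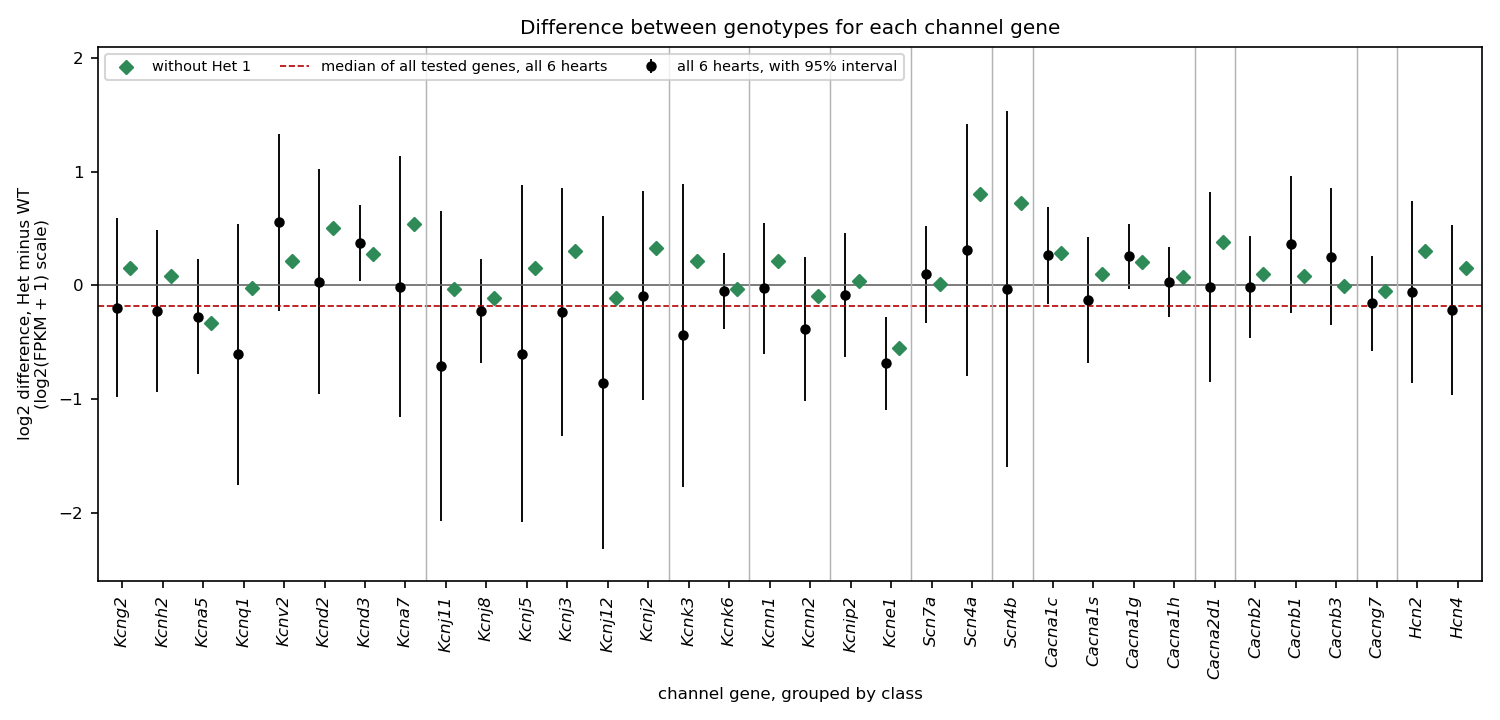
Difference between Het and WT on the log2(FPKM + 1) scale for 34 of the 38 tested channel genes, with its 95% interval from limma over all 6 hearts (black) and the value without Het 1 (green); the dashed line is the median of all tested genes, −0.18. Intervals of Kcne1 and Kcnd3 are the only ones that leave out 0, and without Het 1 the values of 24 of these genes lie above 0.

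Sodium channels start the action potential. The 5 sodium channel genes had a median of −0.68 in Het 1, 0.18 in Het 2 and 0.25 in Het 3 on the log2(FPKM + 1) scale relative to the WT mean, and with all hearts 4 of 5 lay above the median gene. The count was 2 of 5 without WT 2, without Het 2 or without Het 3, where the median relative to the median gene was −0.0756, −0.0473 and −0.0139. Scn4a encodes the isoform best known from skeletal muscle. Scn4a gave 2.55, 1.29 and 3.21 FPKM for WT 1 to 3, whereas Het hearts 1, 2 and 3 read 1.03, 5.598 and 3.904 FPKM. Het 2 and Het 3 lay above all WT hearts and Het 1 below them, and the log2 difference was 0.31 (SE 0.46) with Het 1 and 0.81 without it (limma, adjusted p 0.365). The listed skeletal muscle markers, Mylpf, Tnni2 and Tnnt3, summed to 0.664 to 1.13 FPKM in WT and to 2.52, 1.01 and 1.91 FPKM in Het 1, 2 and 3. Their sum was highest in Het 1 through Mylpf alone, at 2.08 FPKM there. Tnni2 was lowest in Het 1, at 0.225 FPKM, and Tnnt3 was highest in Het 3, at 0.903 FPKM. All of these markers averaged below the filter, and their part in the Scn4a values was not tested. Myh1, Myh2, Myh4, Atp2a1 and Actn3 are not analysed here. Scn7a, a sodium-sensing channel relative of glia and other non-muscle cells, lay at 2.68 to 4.19 FPKM with overlapping groups. The listed nerve and glia markers, 7 genes, summed to 4.49 to 5.40 FPKM in WT and 5.45 to 7.13 FPKM in Het.

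Beta subunits are single-pass proteins that speed sodium channel gating and anchor it. For Scn4b the WT hearts gave 4.001, 1.95 and 4.75 FPKM, while Het 1, Het 2 and Het 3 gave 0.501, 5.22 and 7.53 FPKM. Het 1 was the lowest heart and Het 3 the highest, and on the log2(FPKM + 1) scale Scn4b, Kcnj12 and Kcnj5 had the widest ranges of the tested channel genes. The difference was −0.03 (SE 0.66), and 0.73 without Het 1.

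The median of the calcium channel genes stood nearer to WT in Het 1 than that of the potassium channel genes. Single calcium genes differed in direction there, from 47.4% (Cacna1s) and 53.8% (Cacna2d1) to 248% (Cacnb3) and 279% (Cacnb1) of the WT mean. Several of them averaged near 1 FPKM, where the log2(FPKM + 1) scale shrinks differences. The 9 tested calcium genes had a median of −0.05 in Het 1, against −0.90 for the 22 potassium genes and −0.45 for all genes, on the log2 scale relative to the WT mean. With all hearts, 9 of 9 calcium and 10 of 22 potassium genes lay above the median gene. Without Het 1 these counts were 8 of 9 and 17 of 22, and the medians relative to the median gene were 0.139 for calcium and 0.159 for potassium genes, so the gap between the families was absent without that heart. With library weights the medians were 0.13 and 0.136. The difference between these families was not tested. Relative to the median gene, the calcium median was 0.21 and stayed above it, at 0.13 to 0.40, under all alternatives. The potassium median was −0.03 and lay between −0.07 and 0.16. Of the calcium genes, Cacnb1 and Cacnb3 averaged 0.965 and 0.925 FPKM in WT and passed the filter of 1 FPKM only through Het. Without the filter, 9 of 10 calcium and 11 of 26 potassium genes lay above the median gene. The calcium median relative to it was then 0.142.

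Cacna1c encodes the pore of Cav1.2, the L-type channel that triggers contraction. Cacna1c measured 13.9, 11.7 and 11.3 FPKM across the WT hearts, compared with 14.4, 14.8 and 15.5 FPKM for Het 1, 2 and 3. All Het hearts lay above all WT hearts, Het 1 included. Means were 12.3 ± 1.38 FPKM (WT) and 14.9 ± 0.567 FPKM (Het) (± SD, 3 hearts each). The log2 difference was 0.26 (SE 0.18, limma, adjusted p 0.753) and was positive in all 14 alternatives. With separate groups only the 3 other scalings could have turned its sign, and there it was 0.29 to 0.49. Cacna1g, the T-type channel Cav3.1 of nodal and atrial cells, was also separate. Cacna1g levels in the WT hearts were 1.54, 1.58 and 1.42 FPKM, and Het 1, 2 and 3 had 2.22, 1.99 and 1.82 FPKM. Its means were 1.52 ± 0.0827 FPKM (WT) and 2.01 ± 0.199 FPKM (Het) (± SD, 3 hearts each), with a log2 difference of 0.26 (SE 0.12, adjusted p 0.753). Markers of conduction tissue, 3 listed of 8, summed to 11.7 to 12.6 FPKM in WT and 6.07 to 10.8 FPKM in Het. The sum was lowest in Het 1, where Cacna1g was highest, but its genes differed there. Smoc2, the largest part of the sum, was lowest in Het 1 at 3.36 FPKM, as was Cntn2 at 0.0313 FPKM. Tbx3 was not lowest there, and spanned 2.41 to 3.46 FPKM across WT. In Het 1 it reached 2.67 FPKM, above Het 2 and Het 3 (2.08 and 2.39 FPKM). The part of conduction tissue in the Cacna1g values was not tested. The second T-type gene, Cacna1h, was at 0.840 to 1.20 FPKM with overlapping groups. The skeletal L-type pore Cacna1s was at 1.48 to 2.29 FPKM in WT, and measured 0.893 FPKM for Het 1 and 2.07 and 2.09 FPKM for Het 2 and 3.

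Cacna2d1 encodes the alpha2delta subunit, which carries the channel to the surface. Cacna2d1 gave 12.2, 11.1 and 12.2 FPKM for WT 1 to 3, whereas Het hearts 1, 2 and 3 read 6.37, 15.04 and 16.4 FPKM. Het 1 was lowest and both other Het hearts were above every WT heart. Without Het 1 its log2 difference was 0.38 (limma, SE 0.09, unadjusted p 0.0048, adjusted p 0.258), against −0.01 with all hearts. The FPKM ratio of Cacna2d1 to Cacna1c was 0.878, 0.954 and 1.08 for WT 1 to 3, and 0.443, 1.02 and 1.06 for Het 1 to 3. Beta subunits bind the pore from inside the cell. For Cacnb2 the WT hearts gave 4.87, 3.804 and 4.501 FPKM, while Het 1, Het 2 and Het 3 gave 3.53, 5.57 and 4.08 FPKM. Cacnb2, the main cardiac beta subunit, did not separate the groups. Cacnb1 and Cacnb3, the minor ones, were highest in Het 1. Cacnb1 reached 2.69 FPKM there and 0.764 to 1.23 FPKM elsewhere, and Cacnb3 reached 2.29 FPKM there and 0.699 to 1.14 FPKM elsewhere. Of the gamma-type genes, Cacng7 was at 0.997 to 1.87 FPKM with overlapping groups. Cacng6, a muscle gamma subunit below the filter, was at 0.114 FPKM in Het 1 and 1.599 FPKM in Het 2, the extremes of its range.

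Pacemaker channels open on hyperpolarisation and bind cyclic AMP. HCN4 drives the sinus node and HCN2 is the main form of ventricle. Hcn2 measured 3.82, 3.77 and 5.35 FPKM across the WT hearts, compared with 2.07, 4.84 and 6.26 FPKM for Het 1, 2 and 3. Hcn4 levels in the WT hearts were 1.47, 1.05 and 1.296 FPKM, and Het 1, 2 and 3 had 0.178, 1.66 and 1.38 FPKM. Both were lowest in Het 1, Hcn4 at 13.99% and Hcn2 at 48.02% of the WT mean, and the groups overlapped for both. Without Het 1 the log2 differences were 0.31 for Hcn2 and 0.15 for Hcn4, with adjusted p of 0.488 and 0.624 in limma's test. The ratio of Hcn4 to Hcn2 was 0.242 to 0.384 in WT and 0.0858, 0.342 and 0.221 in Het 1, 2 and 3.

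**Figure D4:**
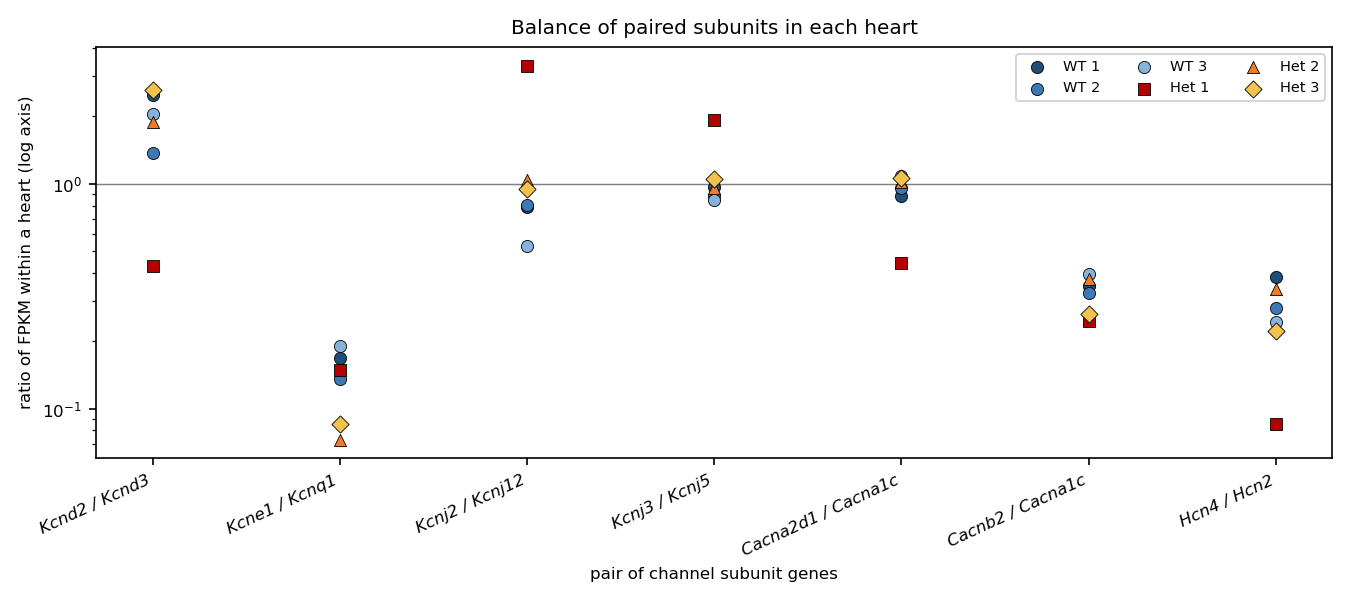
FPKM ratio between paired subunit genes within each heart, on a log axis, with circles for WT and squares, triangles and diamonds for Het 1, 2 and 3; a ratio within a heart does not change when all its values are scaled alike. Het 1 lies outside the other hearts for 6 of the 7 pairs, and for Kcne1 to Kcnq1 the low hearts are Het 2 and Het 3.

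Other carriers and regulators of the action potential, 31 genes tested of 33, gave 0 calls in limma's test, adjusted or not, at 0.05. The groups were separate for 7 of them, Trpm4 as higher in Het, and 6 as lower, among them Abcc8, Calm2, Camk2d, Cav3 and Irx5. Of all tested genes, 1.83% were separate and higher and 15.6% separate and lower, so both counts were near the background. Their median log2 difference was −0.42, against −0.09 for the channel genes and −0.18 for all genes. Atp2a2, the calcium pump of the sarcoplasmic reticulum, measured 165 FPKM in Het 1, whereas the other hearts spanned 1277 to 1951 FPKM. Irx5, a transcription factor that represses Kcnd2 in mouse ventricle, measured 1.80, 1.79 and 2.93 FPKM across WT and 0.241, 1.72 and 1.70 FPKM across Het 1, 2 and 3. Both Irx5 and Kcnd2 were lowest in Het 1, Kcnd2 at 1.29 FPKM. A link between the 2 genes was not tested.

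Channel transcripts were longer and richer in GC than the average gene, and neither property had a strong correlation with their values in Het 1. The longest coding transcript in GENCODE M21 had a median length of 4065 bases over the 38 genes and 2901 over all tested genes (medians taken on the log2 scale), and a median GC content of 55.5% against 50.4%. Across the 38 genes, which share the same libraries and are not independent, the Het 1 log2 ratio to the WT mean had a Pearson r of −0.01 with GC content and 0.20 with log2 length. In Het 2 and Het 3 the r with log2 length was 0.37 and 0.35, against 0.14 and 0.21 over 10985 genes. These are descriptions across genes with no test.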

How the data were processed

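The authors deposited 1 table with FPKM values of 14956 genes in each of 6 heart libraries. No header names the unit of the deposited table; FPKM was read from the range of its values and from the naming of StringTie. Beside them stand a log2 fold change, a p-value and a q-value (adjusted p) by the authors, per the file headers. Libraries were stranded (dUTP) and made from poly(A) RNA, per the labels' protocols. Per the submitters' processing notes, the build was mm10 and the tools included StringTie 1.3.4d, HISAT2 2.0.4, cutadapt 1.9, DESeq2 and edgeR, with no step given for each.

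The 11096 genes that averaged 1 FPKM or more over the 6 libraries were tested as log2(FPKM + 1), Het minus WT, with limma 3.58.1 (R 4.3.3, moderated variances with trend and robust fit). Benjamini-Hochberg adjustment ran over all 11096 genes, with a threshold of 0.05. Fold changes on this scale understate those of low genes. Libraries with the same number deviated from their group means with correlations of −0.197, −0.435 and 0.211, so the numbers were not taken as pairs. The members and gene lists were chosen with earlier results of these data known. Values in every library are given for a fixed panel of heart channels, the 2 most abundant members of each class, the 5 smallest p per direction and the 3 widest ranges; a few further members were named after their values were seen. Alternatives were a pseudocount of 0.1, no filter, a mean of at least 5 FPKM, 3 other scalings, a replicate block, library weights and leaving out each library. Some members were tested and counted with the others but are not reported here by name or drawn.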

Additional observations from a re-analysis of the deposited data

How the results depend on the processing

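No channel gene passed the adjusted threshold under any of the 14 alternatives run, and the smallest adjusted p over them was 0.115 (limma). The count at an unadjusted p under 0.05 was 2, and became 0 with a mean of at least 5 FPKM, where 16 channel genes and no pacemaker gene were tested, 3 with median-ratio scaling, 4 with quantile normalization and 7 with library weights, which gave Het 1 a relative weight of 0.0486. Leaving out 1 library gave 1 to 7, the 7 without Het 1, where the share of all genes rose too, from 3.88% to 12.4% (limma). With the replicate block the count was 1, and the block changed no call at the adjusted threshold. Samples of the same number were not taken as pairs, though correlations with 3 mice a group cannot exclude pairing. The count of genes with separate groups was 5, became 2 with a mean of at least 5 FPKM, and was 6 to 13 when 1 library was left out, the 13 without Het 1. Groups separate more readily with fewer libraries. Over all genes the shares without Het 1 rose from 1.83% to 10.9% (higher) and from 15.6% to 21.8% (lower). Shares over all genes under the other alternatives are not reported here. The median over the channel genes was −0.09 and turned to 0.06 with median-ratio scaling, 0.09 with quantile normalization and 0.10 with library weights, while the median of all genes moved from −0.18 to −0.02, −0.01 and −0.05; leaving out 1 library gave −0.26 to 0.12. Scn4b turned from −0.03 to 0.073 with median-ratio scaling, 0.13 with quantile normalization and 0.63 with library weights, and ranged from −0.53 to 0.73 over the left-out libraries. Kcnj5 turned from −0.60 to 0.11 with library weights and ranged from −1.07 to 0.15 over the left-out libraries. The cause was not tested. Read depth is unknown, and precision is limited by 3 mice a group.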
